A study of Drosophila ananassae with 22 samples.

Results

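The last 6 hours of a *Drosophila ananassae* embryonic time course were compared as windows of 3 hours, with the collections at 16-17, 17-18 and 18-19 hours after egg laying against those at 19-20, 20-21 and 21-22 hours. Features entered the comparison when they reached a level of 10 RPM (reads scaled to the size of the library) in any of the 6 hours, which kept 7506 of 27105 transcription start site clusters (TSCs) and 5435 of 8758 genes. The embryos were whole, unsorted collections of the reference genome strain (In(3R)A) from population cages, and the labels name no treatment in either window. Each hour was 1 library, so adjacent hours stood in for replicates, and the spread within a window held both sampling differences and change from hour to hour. All p-values below measure a window difference against that spread.

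RAMPAGE sequences the capped 5′ ends of RNAs, so that a read places the start of a transcript and the number of reads follows its abundance. A TSC is a narrow group of such starts and usually marks a promoter, and a gene may use several. In the last part of fly embryogenesis the epidermis secretes the cuticle, the tracheae, muscles and nervous system complete their differentiation, and the embryo prepares to hatch. Much of this programme runs on transcripts that are made in large amounts for a short time. In RNA from whole embryos, a smaller number of cells of one type and less RNA per cell cannot be told apart.

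The windows differed in depth. The libraries at 16-19 hours held 3275604 to 12409410 reads in TSCs and those at 19-22 hours 1193107 to 3319262, so that 1 read was worth between 0.0806 and 0.838 RPM. At 19-20 hours, the least deep library, 3 reads corresponded to 2.51 RPM. TSC levels were scaled to the reads in TSCs, so shares of all reads below are shares of the reads in TSCs. Gene levels had a slightly different scale, with 1 read worth 0.0794 RPM at 16-17 hours against 0.0806 RPM for TSCs. Rows of the gene table took 59.1% to 63.3% of the scaled reads at 16-19 hours and 64.7% to 65.5% at 19-22 hours, against 83.2% to 86.7% at 0-6 hours. The identifiers in the tables were not paired with gene names in the sources used here, so lists of cuticle, muscle, neural or maternal genes could not be applied, and features are described by position on the scaffolds of *D. ananassae* release r1.3 (positions counted from 1). How reads that match several loci were handled was not stated, so levels of neighbouring genes that may be near-identical copies are uncertain.

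Between the windows, 244 TSCs rose and 142 fell (limma on log2(RPM + 1), Benjamini-Hochberg adjusted p under 0.05). These were 3.25% and 1.89% of the TSCs tested, or 5.14% together. At the gene level 162 genes rose (2.98% of those tested) and 93 fell (1.71%), or 4.69% together. The falls were larger than the rises. The median log2 difference was -2.92 among TSCs called lower and 1.79 among those called higher, beside 0.30 over all tested TSCs. The most extreme values were -6.37 and 3.62. Of the 7120 TSCs not called, 102 had a log2 difference of at least 2 either way. In all 386 called TSCs the values of the windows did not overlap, which was also true of 33.4% of all tested TSCs. The same held for the 255 called genes and for 33.6% of all tested genes.

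**Figure D1:**
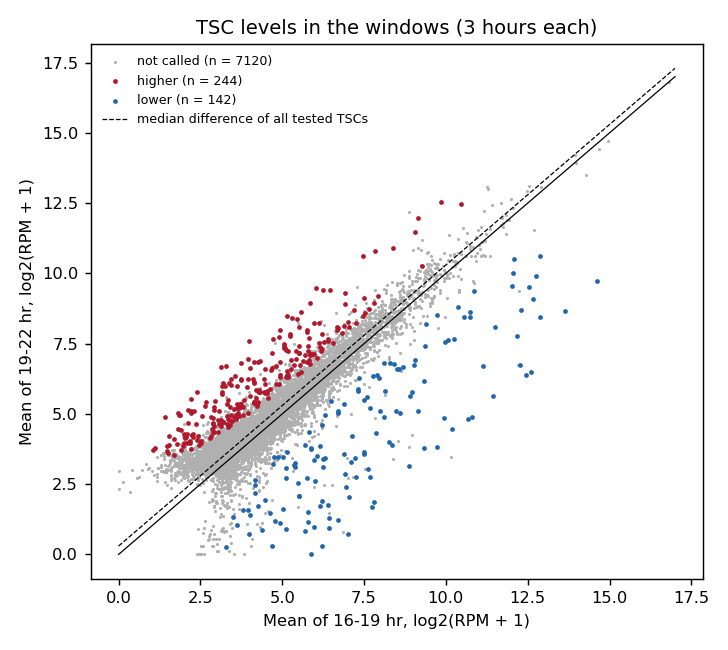
Mean level of each tested TSC at 19-22 hours against 16-19 hours, both as log2(RPM + 1) of the mean of 3 hours, with called TSCs in red (244 higher) and blue (142 lower). The dashed line is shifted from the diagonal by the median log2 difference of 0.30, and the blue points reach much farther from it than the red ones.

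Losses were more concentrated than gains. The 50 TSCs with the largest losses carried 75.2% of all RPM lost between the windows, whereas the 50 with the largest gains carried 38.3% of the gain. With scaling by the trimmed mean of M values (TMM), which sets the bulk of TSCs to no change, the median log2 difference of all tested TSCs became -0.06, with 109 TSCs called higher (1.45% of those tested) and 229 lower (3.05%). All 142 TSCs called lower on RPM were also called lower with TMM, while 109 of the 244 called higher were. For genes the split moved from 162 higher and 93 lower to 46 (0.846%) and 117 (2.15%). With edgeR on the recovered reads, also with TMM, 107 TSCs were called higher (1.43%) and 184 lower (2.45%), and 48 genes higher (0.883%) and 114 lower (2.1%). Thinned to the depth of the 19-20 hour library, 205 TSCs were called higher and 135 lower. No called TSC or gene changed direction under any of the alternatives. Since the windows of all called features did not overlap, only TMM scaling, edgeR and thinning could have reversed a direction. Log2 differences are given on the RPM scale, on which the median of all tested TSCs was 0.30 and that of all tested genes 0.29.

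The counts of calls depended on single hours. Without 18-19 hours, 449 TSCs were called higher and 189 lower. Fewer were called in the other fits. The counts were 126 and 72 without 16-17 hours, 69 and 37 without 17-18 hours, 127 and 113 without 19-20 hours, 37 and 36 without 20-21 hours, and 45 and 46 without 21-22 hours. For genes the counts of higher and lower calls were 356 and 121 without 18-19 hours, 51 and 33 without 16-17 hours, 15 and 12 without 17-18 hours, 31 and 35 without 19-20 hours, 5 and 9 without 20-21 hours, and 5 and 14 without 21-22 hours. Of the 17 TSCs named below by the size of their difference, at least 15 were called in each of those fits. They were picked from calls on these same hours, which favours this, so it is no separate support.

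Single-hour steps put much of the change between 18-19 and 19-20 hours. Of the 244 TSCs called higher, 204 had their largest single-hour rise there, and of the 142 called lower, 92 had their largest fall there. Measured against the median step of all tested TSCs, the numbers were 177 and 105. These TSCs were called on a difference across that boundary, so the counts are a description without a test. The median TSC of this class fell by 0.71 on the log2 scale from 17-18 to 18-19 hours, by 1.88 from 18-19 to 19-20 hours and by 0.39 in the next hour. For the same 3 steps the median of the higher class was 0.47, 1.37 and 0.04, and that of all tested TSCs 0.27, 0.25 and -0.12. Across all 7506 TSCs, log2 levels in 18-19 hours shared less with 19-20 hours (R2 = 0.796) than neighbouring hours on either side did with each other (R2 between 0.838 and 0.894). The 18-19 hour library had an R2 of 0.820 with 20-21 hours, above its R2 with the shallower 19-20 hour library.

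The TSCs that fell had a shared history in the 15 earlier hours, which the comparison did not use. As a class they took 0.04% of all reads at 0-1 hours, 1.54% at 8-9 hours, 6.58% at 13-14 hours and 15.2% at 15-16 hours. Their share was highest at 16-17 hours, with 19.4%, and stood at 18.4% and 8.72% in the next 2 hours before it dropped to 1.96%, 1.62% and 1.27% at 19-22 hours. Before 16 hours, 125 of the 142 (88.0%) had their highest level at 13-16 hours, against 27.9% of all tested TSCs. Only 15 (10.6%) reached 10 RPM in the first 2 hours, when the embryo runs on RNA loaded by the mother, against 61.0% of all tested TSCs. Over the whole series 85 of them peaked at 16-19 hours and 57 earlier, 29 of those at 15-16 hours. Of all 7506 tested TSCs, 578 peaked at 16-19 hours and 5416 earlier, 168 of those at 15-16 hours. The calls themselves favour a peak at 16-19 hours over one at 19-22 hours. They also favour high levels shortly before 16 hours, since neighbouring hours shared much of their levels. The history of this class is thus a description and no separate support.

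The TSCs that rose had more varied histories. They took between 0.94% and 1.90% of the reads in every hour up to 16 hours, 0.87%, 1.18% and 1.55% in the 3 hours of the earlier window, and 4.41%, 5.25% and 5.55% at 19-22 hours. In the first 2 hours 95 of the 244 (38.9%) reached 10 RPM. Their highest level before 16 hours was at 13-16 hours for 114 (46.7%, against 27.9% of all tested TSCs) and at 0-3 hours for 51 (20.9%, against 30.6%). At no hour before 16 did 72 of them (29.5%) reach 10 RPM, against 8.94% of all tested TSCs. A TSC low in the earlier window could pass the minimum of 10 RPM through the later one. The selection thus favours this share too, and it is a description without a test. The last window held the peak of the series for 167 (68.4%, against 20.1%), a share that the calls themselves favour, while the other 77 had been higher before 16 hours. The rise thus followed low levels before 16 hours for some TSCs and was a return for others. A level under 10 RPM was not absence, since 1 such TSC described below had reached 6.41 RPM at 13-14 hours.

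**Figure D2:**
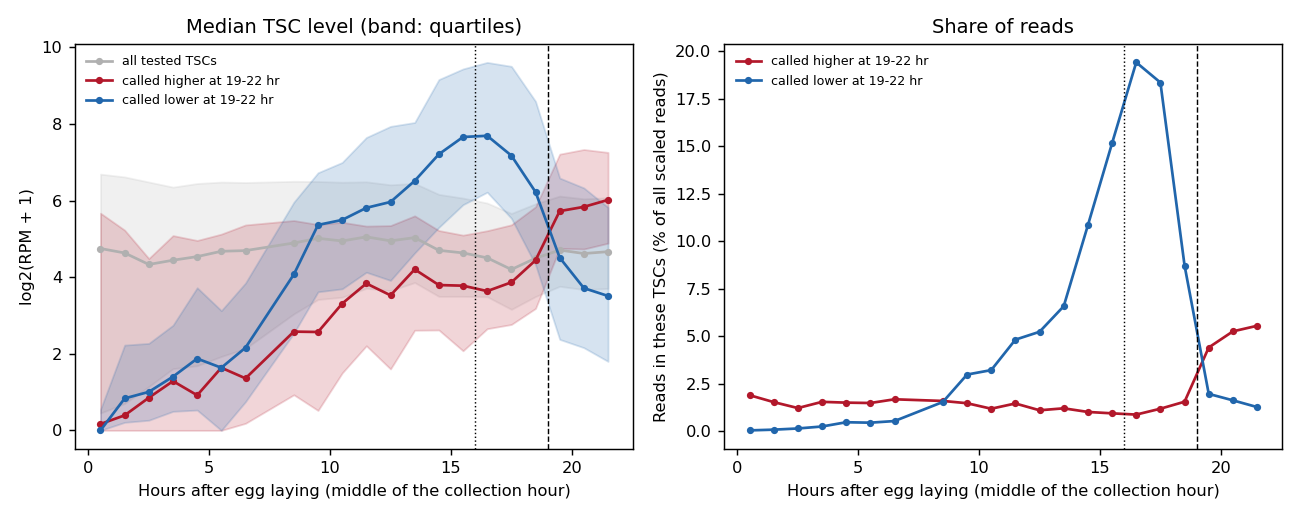
Left, median level as log2(RPM + 1) at each of the 21 hours used, with quartile bands, for the TSCs called higher (red) or lower (blue) at 19-22 hours and for all tested TSCs (grey). Right, percent of all reads in the called TSCs. Dotted and dashed lines stand at 16 and 19 hours. The blue class climbed to 19.4% of reads at 16-17 hours and was at 1.27% at 21-22 hours, while the red class went from 0.87% to 5.55%.

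Called TSCs were also narrow. The median width was 40.5 bp for those that rose and 85.5 bp for those that fell, against 103 bp over all tested. Width moved with depth, so it was compared among TSCs with 1000 to 4000 reads in the series. There the medians were 44.0 bp for 80 TSCs that rose, 54.0 bp for 33 that fell and 94.0 bp for 2631 that were not called. With 100 to 1000 reads the medians were 17.5 bp for 84 TSCs that rose, 31.0 bp for 14 that fell and 44.0 bp for 1310 not called. With 4000 to 20000 reads the medians were 101 bp, 93.5 bp and 116 bp, so that the gap was smaller among well-covered TSCs. The part of read number in the widths within these bins was not tested. Attribution to a gene differed little, since 19 of the TSCs that rose (7.79%) and 14 of those that fell (9.86%) had no gene. Of all tested TSCs, 691 (9.21%) had none.

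The largest fall was at a TSC that the authors assigned to no gene, on the minus strand of scaffold_13337:2536966-2537306. It held 6475, 8625 and 1601 RPM in the 3 hours of the earlier window and 184, 46.5 and 16.9 RPM in the later one. Levels declined in every step from 17-18 hours on and the lowest early value was above the highest late value. The log2 difference was -6.37 ± 0.84 (SE, n = 3 hours per window, limma adjusted p = 0.0049). Before 16 hours this TSC had reached 4058 RPM, at 15-16 hours, and no more than 13.7 RPM in the first 3 hours.

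The next largest called fall was 7.83 Mb along the same scaffold, at the minus-strand TSC of scaffold_13337:10367695-10368049. It went from 9453, 7755 and 1312 RPM to 142, 76.3 and 46.1 RPM. The mean was 70.1 times higher in the earlier window, and the log2 difference was -5.83 ± 0.71 (SE, n = 3 hours per window, limma adjusted p = 0.0031). Its levels declined in every step and the windows were far apart. A TSC that was not called had a larger difference, of -5.93.

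Another 3 of the 6 largest called falls lay within 10.5 kb of scaffold_13340. The plus-strand TSC at 16886688-16886836 had 1194, 1042 and 304 RPM at 16-19 hours and 21.8, 9.71 and 8.13 RPM at 19-22 hours (log2 difference -5.79 ± 0.54, SE). The minus-strand TSC at 16894938-16895111 had 3846, 3756 and 765 RPM and then 75.4, 49.2 and 20.2 RPM (-5.68 ± 0.66). The narrow plus-strand TSC at 16884650-16884676 had 124, 73.3 and 20.6 RPM, and then 0, 0.69 and 0 RPM, which was 1 read over the later 3 hours. The limma adjusted p was 0.0014, 0.0027 and 0.0024 for the 3 TSCs. All 3 had risen at 13-16 hours, to 555, 3941 and 66.0 RPM at 15-16 hours, and all 3 were at 11.9 RPM or less in the first 3 hours. The fitted difference of the last one depends on the pseudocount, since its late level was below that of 3 reads.

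The sixth was a minus-strand TSC at scaffold_13337:10372122-10372242, whose reads are those of gene row FBgn0040798. The gene row held 2833, 1586 and 419 RPM and then 39.6, 25.9 and 14.2 RPM, a log2 difference of -5.60 ± 0.64 (SE, limma adjusted p = 0.0052). The gene row with the largest fall, FBgn0051080, could not be linked to a TSC by its reads. It held 123, 76.1 and 20.7 RPM at 16-19 hours and 0, 0.68 and 0 RPM at 19-22 hours, where its signal again came from 1 read, with a limma adjusted p of 0.0052. These values are close to those of the TSC at scaffold_13340:16884650-16884676, with 124, 73.3 and 20.6 RPM and then 0, 0.69 and 0 RPM. The row and that TSC may be the same locus, which was not tested. Neither gene row had passed 3 RPM in the first 3 hours.

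Among TSCs without a gene, 2 more falls were singled out by the same rule of size. One, at scaffold_13337:14315082-14315258 on the minus strand, went from 332, 209 and 73.2 RPM to 9.22, 4.85 and 3.31 RPM (-4.76 ± 0.54, SE, limma adjusted p = 0.0024). The other, at scaffold_13337:5784698-5784751, also on the minus strand, had 73.0, 97.1 and 84.5 RPM and then 1.68, 2.08 and 0.60 RPM. Its level was steady through the earlier window and fell in a single step, with a log2 difference of -5.17 ± 0.33 (SE, limma adjusted p = 2.7e-04). It had not passed 16.1 RPM before 16 hours, and its levels at 16-19 hours were the highest of the series.

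In absolute terms the largest loss was at the minus-strand TSC of scaffold_13337:10363630-10363765. It had 38389, 30496 and 6022 RPM and then 1481, 796 and 298 RPM, so that the mean of this TSC alone went from 24969 to 858 RPM. The second loss, at scaffold_13266:13564954-13565201, was from 12647, 19126 and 6830 RPM to 867, 223 and 134 RPM. Both were called, with log2 differences of -4.76 ± 0.76 and -5.32 ± 0.65 (SE, limma adjusted p = 0.011 and 0.0031). A plus-strand TSC at scaffold_13337:7171478-7171983 lost next most without a call, from 21449, 21435 and 16828 RPM to 13122, 12381 and 9368 RPM (-0.78 ± 0.31, SE, limma adjusted p = 0.17). These were singled out by their loss of RPM after the values were seen.

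The largest rise was at a minus-strand TSC of 20 bp at scaffold_13340:6535476-6535495. It held 12.4, 12.8 and 19.2 RPM in the earlier window and 193, 198 and 180 RPM in the later one. Levels were flat within both windows and apart between them, with a log2 difference of 3.62 ± 0.25 (SE, n = 3 hours per window), 3.33 above the median of all TSCs, and a limma adjusted p of 3.5e-04. Before 16 hours it had not passed 14.7 RPM, and no read was found in the first 3 hours.

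Others of this group also stepped up most at 19-20 hours and went on rising into 20-21 hours. The plus-strand TSC at scaffold_13266:15974689-15974696 went from 6.29, 8.85 and 7.87 RPM to 66.2, 119 and 116 RPM (3.51 ± 0.30, SE, 3.21 above the median, limma adjusted p = 8.6e-04). The minus-strand TSC at scaffold_13266:1677890-1677897 went from 5.64, 7.94 and 12.7 RPM to 62.0, 116 and 133 RPM (3.42 ± 0.37, SE, 3.12 above the median, limma adjusted p = 0.0024). Both spanned 8 bp and neither had passed 6.41 RPM before 16 hours.

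Neighbouring plus-strand TSCs of different genes on scaffold_13337 came next. The TSC at 17938530-17938582 had 64.9, 44.9 and 85.7 RPM and then 786, 675 and 694 RPM, with a log2 difference of 3.49 ± 0.28 (SE, 3.19 above the median, limma adjusted p = 6.2e-04). The TSC at 17936653-17936715 had 5.16, 3.97 and 28.2 RPM and then 83.8, 95.7 and 152 RPM, with a difference of 3.48 ± 0.60 (SE, 3.19 above the median, limma adjusted p = 0.016). The first stepped up at 19-20 hours, whereas the second was already rising at 18-19 hours, and its adjusted p was 0.060 with edgeR on the recovered reads. It was also not called when 17-18, 20-21 or 21-22 hours was left out, with log2 differences of 3.01, 3.56 and 3.23.

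The gene row with the largest rise was FBgn0030558, with its single TSC on the plus strand of scaffold_13248:1862950-1862957. It had 1.75, 1.21 and 2.00 RPM at 16-19 hours and 33.0, 33.5 and 19.0 RPM at 19-22 hours, a mean 17.2 times higher. The log2 difference was 3.44 ± 0.37 (SE), 3.15 above the median of all genes, with a limma adjusted p of 0.0052. The row FBgn0031654, with its TSC on the minus strand of scaffold_12943:2693231-2693256, rose from 3.89, 38.7 and 32.8 RPM to 145, 167 and 284 RPM (3.35 ± 0.70, SE, 3.06 above the median, limma adjusted p = 0.038). It was much lower at 16-17 hours than in the rest of the earlier window, and its adjusted p was 0.090 with TMM scaling and 0.10 with edgeR. It was not called without 17-18 hours or without any one of the last 3 hours, with log2 differences of 3.89, 3.54, 3.45 and 3.06. The rows had not passed 1.99 and 8.62 RPM before 16 hours.

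Of the TSCs without a gene, the 3 largest called rises all continued through the last hour. The plus-strand TSC at scaffold_12613:271628-271676 had 51.9, 78.5 and 38.8 RPM and then 298, 499 and 672 RPM. At scaffold_13337:5790078-5790148 a minus-strand TSC had 40.9, 46.4 and 51.8 RPM and then 261, 406 and 513 RPM. At scaffold_13337:18848560-18848631 a plus-strand TSC had 410, 807 and 469 RPM and then 2172, 4629 and 5236 RPM. The log2 differences were 3.08 ± 0.36, 3.01 ± 0.29 and 2.80 ± 0.40 (SE), each 0.30 less when set against the median, with limma adjusted p of 0.0029, 0.0014 and 0.0071. The last of these took 0.40% of all reads in the later window and was among the 6 largest gains of RPM in the comparison, and was not called without 20-21 hours (log2 difference 2.65).

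**Figure D3:**
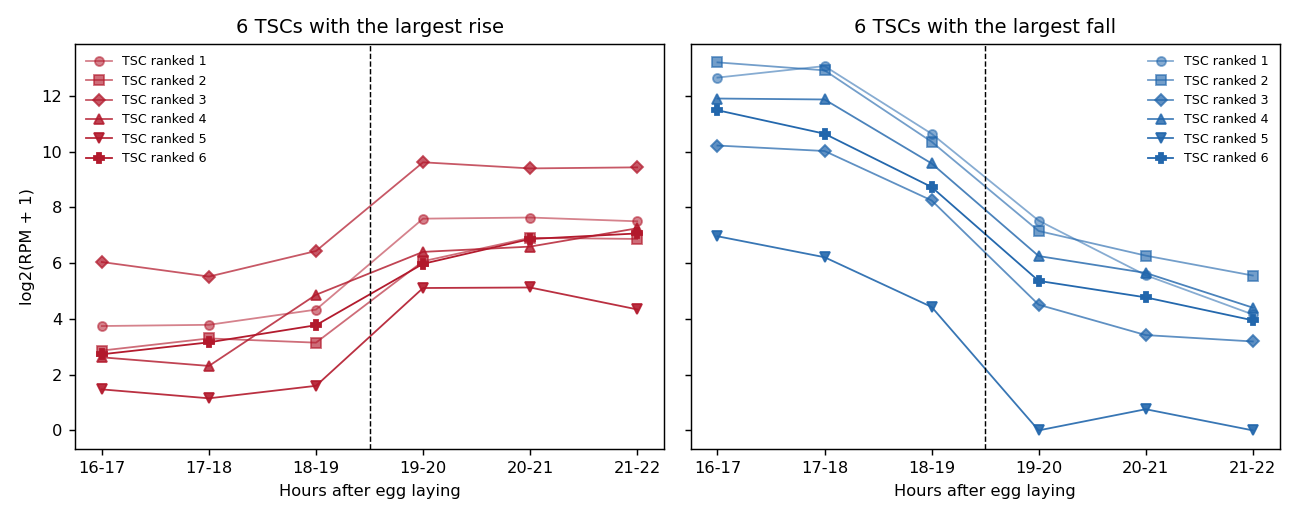
Levels in each of the 6 hours, as log2(RPM + 1), of the 6 called TSCs with the largest rise (left) and the 6 called TSCs with the largest fall (right), numbered by the size of the difference. Each point is 1 library and the dashed line separates the windows. The rising TSCs step up most at 19-20 hours, apart from that ranked 4, which rose more into 18-19 hours. The falling TSCs were already lower at 18-19 hours than at 16-18 hours.

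Genes called the same way often lay next to each other. Each gene was placed by its strongest tested TSC, and TSCs without a gene were placed on their own. Of 133 such units called lower, 123 had a tested neighbour within 20 kb, and for 51 of these (41.5%) an adjacent unit was also called lower, against 3.32% over all units with a neighbour. Of 227 units called higher, 214 had a neighbour and 44 (20.6%) had one called higher, against 5.81% over all. The shares were 44.8% and 26.0% within 5 kb and 40.2% and 19.9% within 50 kb. This arrangement was looked for after the calls were seen, and the values are a description without a test. They rest on the calls on RPM and were not recounted with TMM scaling, which kept 109 of the 244 TSCs called higher.

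The longest run that fell held 7 genes in 16.8 kb of scaffold_13337, from 10355611 to 10372444, with 3 plus-strand and 4 minus-strand genes. Together they held 6.45%, 5.37% and 1.49% of all reads in the hours of the earlier window and 0.20%, 0.20% and 0.10% in the later one. The log2 differences ran from -3.20 to -5.83. Levels within the run differed by orders of magnitude. The weakest gene had 62.1, 19.8 and 7.23 RPM and then 2.51, 0.69 and 0.30 RPM, whereas the strongest was the TSC at 10363630-10363765 described above. Divergent pairs of TSCs stood at both 10365316-10365859 and 10372122-10372444, separated by 52 and 19 bp, with both members called lower. In the second pair the minus-strand TSC had 2875, 1602 and 425 RPM and then 40.2, 26.3 and 14.5 RPM. Its plus-strand partner had 7343, 4250 and 3128 RPM and then 137, 130 and 53.9 RPM.

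Another 4 genes that fell lay at 10310844-10316952 of the same scaffold. They held 2.04%, 2.10% and 1.54% of reads and then 0.30%, 0.37% and 0.34%, with log2 differences from -1.60 to -2.84. Their summed level had been higher before the comparison, at 29526 RPM at 15-16 hours against 15384 to 21032 RPM at 16-19 hours. A set of 5 genes on alternating strands fell at 5512274-5525886 of scaffold_13340. Their strongest fall was at the plus-strand TSC of 5520819-5520921, with 376, 249 and 14.7 RPM and then 4.19, 2.08 and 0.30 RPM. Their weakest was at the minus-strand TSC of 5512274-5512412, with 421, 420 and 386 RPM and then 122, 127 and 56.0 RPM. The first had nearly gone by 18-19 hours, while the second was level until then.

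The longest run that rose held 6 genes in 18.4 kb of scaffold_12916, from 4957929 to 4976322, all on the plus strand. Its TSCs were narrow. At 21-22 hours their levels ran from 11.1 to 209 RPM, beside a median of 24.4 RPM over all tested TSCs. Their summed level was 36.8, 83.6 and 141 RPM at 16-19 hours and 369, 397 and 562 RPM at 19-22 hours. The log2 differences ran from 2.06 to 3.04 and no member had passed 33.1 RPM before 16 hours. With TMM scaling its members starting at 4967108, 4969937 and 4976312 were not called (limma adjusted p = 0.060, 0.075 and 0.096). A second run on this scaffold, at 1739701-1744906, held 3 plus-strand genes with differences of 3.34 ± 0.21, 3.31 ± 0.40 and 2.96 ± 0.32 (SE). Its last member had 67.4, 70.2 and 125 RPM and then 897, 567 and 569 RPM.

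Opposite changes also met at close distance. On the minus strand of scaffold_13337, the TSC at 5784698-5784751 that fell by 5.17 on the log2 scale was followed at 5785826-5785851 by a TSC that was not called, with 72.4, 161 and 306 RPM and then 145, 40.9 and 12.7 RPM. Next came a run of 3 TSCs at 5786473-5790148 that rose by 2.98, 3.09 and 3.01. The second of these had 27.3, 40.3 and 47.5 RPM and then 236, 322 and 452 RPM. Within 5.45 kb of one strand, the peak thus moved from 17-18 hours to 18-19 hours and then to 21-22 hours. Among all adjacent units within 5 kb, 1 pair with a gene or TSC called higher beside one called lower was counted, at 6706803 and 6709610 of the same scaffold. The fall at 5784698 was not among it, since the uncalled TSC stood in between.

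**Figure D4:**
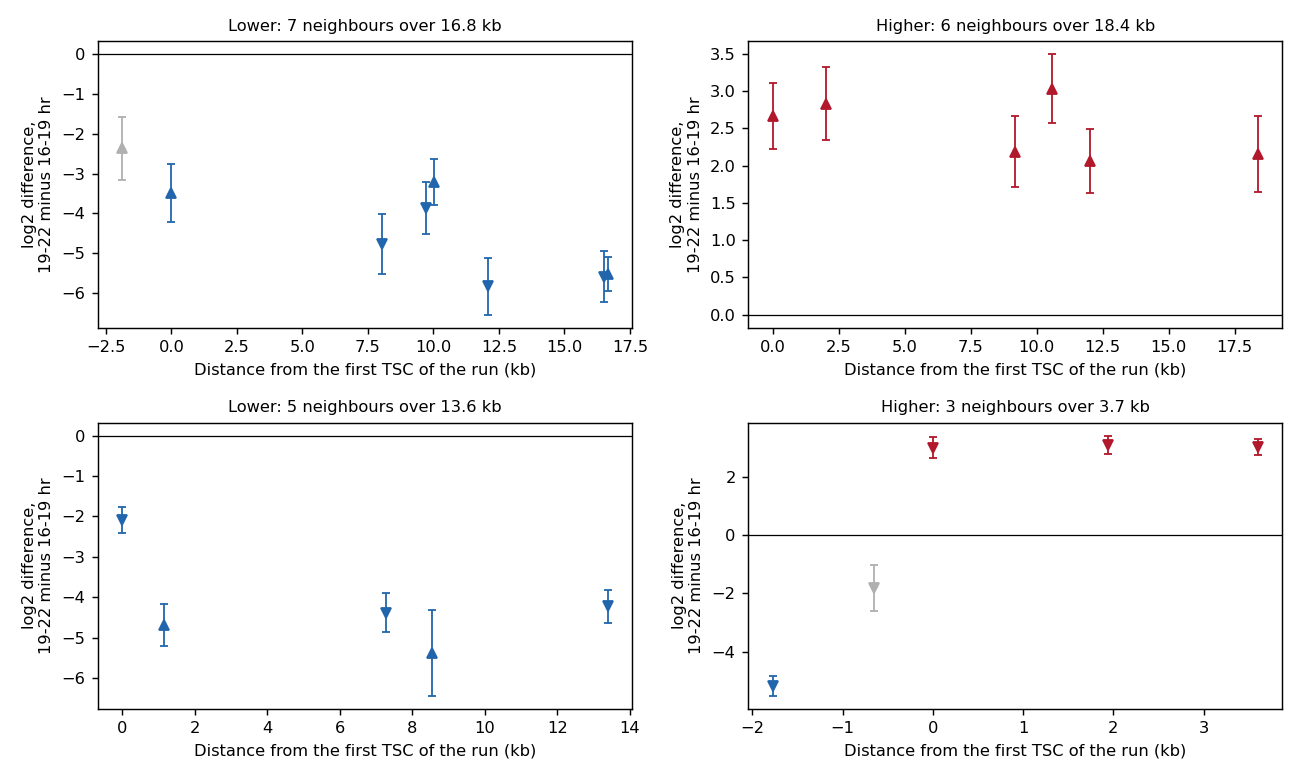
Log2 difference (19-22 minus 16-19 hours) with its standard error from limma against distance in kb from the first TSC of 4 runs of neighbours called the same way, with every tested TSC within 3 kb of the run. Triangles point up for the plus strand and down for the minus strand, in blue for TSCs called lower, red for higher and grey for not called. The runs hold 7, 6 and 5 genes and, in the last panel, 2 genes and 1 TSC without a gene. There a TSC at -5.17 stands 1.77 kb before the first of 3 TSCs near 3.

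Of the 12 most abundant TSCs of these hours, 2 were called, both lower. The top TSC, on the plus strand of scaffold_13337:20810416-20810674, held 97592, 126617 and 119127 RPM and then 119114, 120664 and 109157 RPM, which was 11.4% and 11.6% of all reads on average. Its log2 difference was 0.03 ± 0.39 (SE, limma adjusted p = 0.97). Before 16 hours it had not passed 41131 RPM. Its neighbour at 20807523-20807665 held 14137, 14516 and 20189 RPM and then 18022, 13036 and 15242 RPM, and was not called either. A further plus-strand TSC of this stretch, at 20803947-20804223, went from 12819, 6948 and 2647 RPM to 598, 227 and 231 RPM (-4.29 ± 0.58, SE, limma adjusted p = 0.0054). TSCs of different genes within 6.47 kb of one strand thus had different courses. These were singled out by abundance after the values were seen.

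Few changes between alternative TSCs of one gene were called, which does not show that such changes were rare. Of 655 genes with at least 2 tested TSCs, 4 (0.611%) had TSCs that changed by different amounts (limma diffSplice F test, Benjamini-Hochberg adjusted p under 0.05), and 79 had an unadjusted p under 0.05. None of the 655 had one TSC called higher and another called lower by limma, with TMM scaling or by edgeR, and 7 had such a pair at an unadjusted p under 0.05. The number called was 7 with TMM scaling, 2 with a minimum of 25 RPM and 31 with no minimum. It was 1, 2 and 15 when 16-17, 17-18 or 18-19 hours was left out and 7, 0 and 2 without 19-20, 20-21 or 21-22 hours. Without 20-21 hours 58 genes had an unadjusted p under 0.05 by limma.

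The first of these genes lay on the minus strand of scaffold_13337 between 20886233 and 20903020, with 5 tested TSCs. Its most upstream tested TSC, at 20902933-20903020, supplied 64.5%, 60.9% and 61.4% of the RPM of the tested TSCs at 16-19 hours and 49.4%, 44.9% and 24.4% at 19-22 hours. The TSC at 20894905-20895180 went from 20.5%, 25.9% and 28.6% to 41.9%, 48.3% and 68.3% (adjusted p for the gene = 0.0056, limma diffSplice). The second TSC rose from 84.4, 125 and 148 RPM to 388, 435 and 630 RPM, while the first was not called. A weaker TSC at 20886233-20886561 was also called higher, from 3.38, 7.02 and 2.79 RPM to 19.3, 18.0 and 15.1 RPM (log2 difference 1.85 ± 0.38, SE, limma adjusted p = 0.029). Another TSC at 20899448-20899758 had held 670 RPM in the first 3 hours and was at 26.8 to 38.6 RPM here.

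In the second gene, on the plus strand of scaffold_13340 between 20616734 and 20662904, a loss set the shift. Its most downstream TSC fell from 99.6, 47.9 and 49.9 RPM to 10.1, 11.1 and 9.94 RPM, and from 57.3% ± 5.8 to 16.8% ± 0.85 of the gene's tested RPM (mean ± SD, n = 3 hours). The most upstream TSC held 37.5, 25.6 and 30.3 RPM and then 40.2, 49.2 and 41.0 RPM, and went from 28.5% ± 4.2 to 70.1% ± 4.6. These TSCs are 46.1 kb apart. The adjusted p was 0.0056 (limma diffSplice).

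The other 2 genes were weakly expressed. On the minus strand of scaffold_13340, the TSC at 23376449-23376621 went from 36.3% ± 11 to 6.77% ± 2.1 of its gene, with 9.03, 11.6 and 4.82 RPM and then 2.51, 2.77 and 1.51 RPM. Its downstream partner at 23375034-23375112 went from 13.6, 14.0 and 15.5 RPM to 28.5, 32.6 and 33.1 RPM. On the plus strand of scaffold_13337, the most upstream of 3 tested TSCs between 9502408 and 9512331 went from 35.1% ± 7.7 to 13.2% ± 4.0, and the most downstream from 11.3% ± 3.5 to 26.0% ± 6.6. The adjusted p was 0.010 and 0.014 for these genes (limma diffSplice). At 19-20 hours the level of 2.51 RPM stood for 3 reads.

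**Figure D5:**
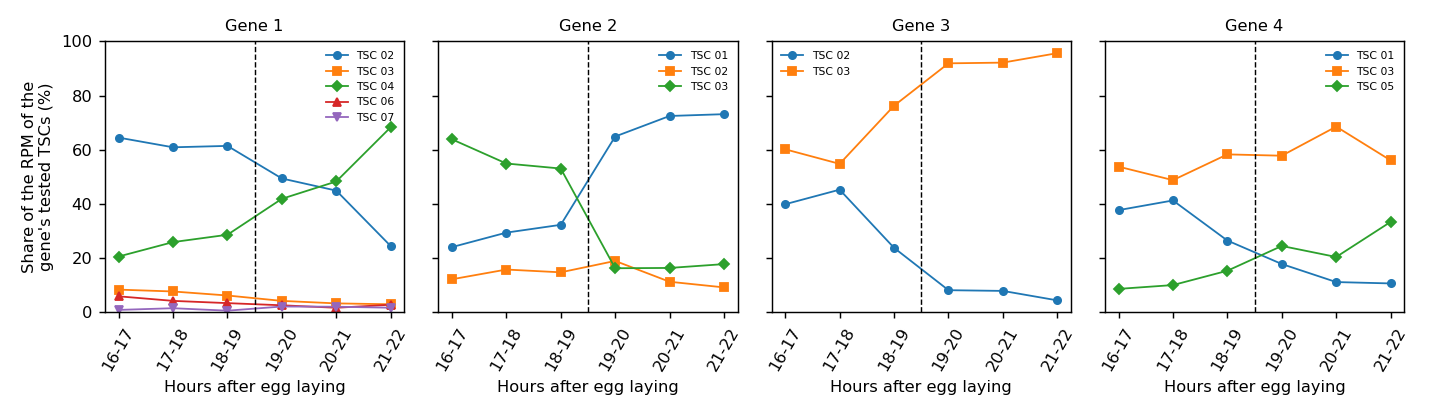
Percent of the summed RPM of a gene's tested TSCs that each TSC supplied in the 6 hours, for the 4 genes with a called shift. Each point is 1 library and the dashed line separates the windows. In gene 1 the upstream TSC went from a mean of 62.2% to 39.6%, and in gene 2 the downstream TSC from 57.3% to 16.8%.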

How the data were processed

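RAMPAGE libraries of 22 hourly collections of *D. ananassae* embryos, 1 per hour, were barcoded, pooled and sequenced on 1 lane. Per the study's methods the authors aligned reads with STAR to release r1.3, called TSCs on the pooled series and deposited the level of each TSC and gene in RPM. A deposited score column of the TSC list and the deposited smoothed profiles were not used. The 7-8 hour collection was left out, as in the study. Every RPM value was a whole multiple of 1 read within 0.1 reads, so reads were recovered.

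Features with at least 10 RPM in any of the 6 hours were tested with limma 3.58.1 (trend) on log2(RPM + 1) in R 4.3.3, with Benjamini-Hochberg adjustment over all features of a table. The pseudocount understates changes of low features. Genes with several TSCs were tested with diffSplice. With 3 hours against 3, an exact permutation test of one feature could not pass 0.05, so it was not used. Scripts were tested on simulated data. Alternatives were pseudocounts of 0.1 and 5 RPM, a minimum of 25 RPM and none, TMM scaling, edgeR 4.0.16 on recovered reads, reads thinned to equal depth, a slope over the hours, and each hour left out. Counting each TSC once was added after seeing the data, because 88 of the tested rows repeat a TSC listed under another gene (2 called higher and 1 lower).

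The gene and TSC tables carry different identifiers, and 0 of either matched the reference table. Gene rows were linked to TSCs where reads were identical in all 21 hours used (4285 of 5435). By rule, the 6 TSCs and the 3 TSCs without a gene with the largest called difference in each direction were described, together with the genes with a shift. Gene rows are printed for the first 2 in each direction. Members and lists were chosen with earlier results of these data known.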

Additional observations from a re-analysis of the deposited data

How the results depend on the processing

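Directions held for all called TSCs and genes under all alternatives, of which only TMM scaling, edgeR and thinning could have reversed one. With TMM scaling 109 TSCs were called higher and 229 lower, and 46 genes higher. With edgeR on recovered reads 107 TSCs and 48 genes were called higher. With no minimum 102 TSCs were called higher and 67 lower, and 100 genes higher, of 24712 TSCs and 8671 genes. Thinned to equal depth, 105 genes were called higher. Genes with a shift between TSCs numbered 2 with a minimum of 25 RPM, 31 with no minimum, 7 with TMM scaling and 12 with a slope over the hours. The other settings, among them both pseudocounts and counting each TSC once, left the counts within 1.5 times. Similar counts did not always mean the same features. The slope called 152 of the 244 TSCs called higher between the windows and 117 of the 142 called lower. For genes it called 87 of the 162 higher and 70 of the 93 lower. Leaving out each hour in turn gave 37 to 449 TSCs called higher and 36 to 189 lower, 5 to 356 genes higher and 9 to 121 lower, and 0 to 15 genes with a shift. The causes were not tested, apart from the smaller or larger number of features and hours tested. No paired analysis was possible because the hours are single libraries and an hour of one window has no partner in the other. Depth limits low features most at 19-20 hours, where 3 reads are 2.51 RPM.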

Other observations

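Some strong TSCs stood apart in a single hour. Among 1288 distinct TSCs with a mean of at least 100 RPM over the 6 hours, 15 were at least 4 times below both neighbouring hours at 17-18 hours, 8 at 18-19 hours, 12 at 19-20 hours and 0 at 20-21 hours. Values at least 4 times above both neighbouring hours were found for 1 TSC at 18-19 hours and 1 at 20-21 hours. Between the windows 2 of the TSCs low at 18-19 hours were called higher and 1 of those low at 19-20 hours lower, and the others were not called. This was looked for after the values were seen. The strongest case was the minus-strand TSC at scaffold_13266:874126-874415, the second most abundant of these hours, with 19748, 33158, 42253, 6458, 38043 and 35986 RPM from 16-17 to 21-22 hours. At 18-19 hours the plus-strand TSC at scaffold_13417:1128309-1128710 held 474 RPM, between 3221 and 4088 RPM in the neighbouring hours. At 17-18 hours the plus-strand TSC at scaffold_12916:14252735-14252912 held 350 RPM, between 2820 and 2845 RPM. With 1 library per hour a short change in the embryo and a deviation of one library cannot be told apart.

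Of the 6 largest gains of RPM, 3 were not called. The minus-strand TSC at scaffold_13337:18883266-18883323 held 161, 785, 452, 170, 5045 and 8779 RPM, and rose only after 19-20 hours. The minus-strand TSC at scaffold_12916:14527739-14527840 held 953, 490, 5939, 12050, 6950 and 6773 RPM, and had risen by 18-19 hours. Its neighbour at 14530328-14530509 on the same strand held 1019, 1621, 4923, 7591, 8958 and 7863 RPM. The limma adjusted p was 0.28, 0.086 and 0.058.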
